A study of Mus musculus with 16 samples.

Results

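The STAT genes Stat2, Stat3, Stat4, Stat5a, Stat5b and Stat6 were followed in mouse CD8+ T cells kept in 4 media that differed in methionine and in whether tumour cells had used them before. The members were chosen by name: they are 6 of the 17159 genes in the table of depth-normalized read counts, and all 6 passed the filter on low values. The cells came from C57BL/6 mice, were activated with antibodies to CD3 and CD28 for 2 days, and then spent 36 h in 1 of the media. Complete fresh medium contained methionine, and methionine-free fresh medium lacked it. The other media were culture supernatant of B16F10, a mouse melanoma line, either as collected or with methionine added back. Each medium had 4 libraries, numbered 0 to 3. The labels name no genetic alteration, and whether a medium's 4 libraries are from separate mice or cultures is not stated, so the p-values below measure the spread between these libraries, which may be technical.

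STAT proteins wait in the cytoplasm until a cytokine receptor is engaged. The JAK kinases bound to that receptor then phosphorylate them, and the STAT proteins pair up, enter the nucleus and switch on genes. In activated CD8+ T cells, STAT5A and STAT5B carry the signals of interleukin-2, interleukin-7 and interleukin-15 for growth and survival, while STAT4 answers interleukin-12, STAT6 interleukin-4, STAT3 interleukin-6, interleukin-10 and interleukin-21, and STAT2 the type I interferons. Transcript levels, measured here, do not report how much of each protein is phosphorylated.

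Stat5b, Stat5a and Stat3 are neighbours on mouse chromosome 11. In GRCm38 with the GENCODE annotation, Stat5b lies at chr11:100780731-100850724 on the minus strand, Stat5a at chr11:100859351-100885169 on the plus strand and Stat3 at chr11:100885098-100939540 on the minus strand. The ends of Stat5a and Stat3 overlap by 72 bases. Stat6 (chr10:127642986-127660957, plus strand), Stat2 (chr10:128270559-128292849, plus strand) and Stat4 (chr1:51987148-52107189, plus strand) lie elsewhere. Promoter sequence is shown for the 3 chromosome 11 neighbours, because the neighbouring genes Stat5a and Stat5b gave different readings across the media, and for Stat6, whose readings were most like those of Stat5b among the members. The sequences are RefSeq windows (GRCm38.p6) cut to the bases outside the gene's own annotated exons, and run 5′ to 3′ on the gene's strand. Capitals mark a GC box (GGGCGG, or CCGCCC on the other strand) or a CCAAT box (CCAAT, or ATTGG on the other strand).
Stat5b, chr11:100850725-100850831, minus strand: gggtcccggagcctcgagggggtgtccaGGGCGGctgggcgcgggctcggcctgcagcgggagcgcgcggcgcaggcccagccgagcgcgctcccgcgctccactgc
Stat5a, chr11:100860234-100860344, plus strand, within the annotated span of the gene: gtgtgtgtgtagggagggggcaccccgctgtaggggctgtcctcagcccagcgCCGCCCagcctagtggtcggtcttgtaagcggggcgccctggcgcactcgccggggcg
Stat3, chr11:100939541-100939790, minus strand: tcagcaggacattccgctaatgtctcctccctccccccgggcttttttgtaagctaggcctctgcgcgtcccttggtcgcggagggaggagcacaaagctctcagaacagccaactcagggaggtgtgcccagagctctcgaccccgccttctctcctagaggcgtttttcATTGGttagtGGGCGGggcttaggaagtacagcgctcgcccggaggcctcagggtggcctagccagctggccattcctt
Stat6, chr10:127642736-127642985, plus strand: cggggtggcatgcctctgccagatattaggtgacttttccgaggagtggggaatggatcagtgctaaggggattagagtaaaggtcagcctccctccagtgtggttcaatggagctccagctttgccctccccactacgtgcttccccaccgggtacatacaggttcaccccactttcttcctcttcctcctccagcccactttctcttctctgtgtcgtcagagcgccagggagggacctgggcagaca

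The RefSeq table held 9 promoter windows of 300 bases for the 6 members, more than one for some genes. Over its full 300 bases, exon bases included, the window that starts Stat5b was the richest in G and C, at 82.7%. The full windows from which the other printed bases were cut had 67.7% for Stat5a, 60.7% for Stat3 and 57.3% for Stat6. Windows of the pair that are not printed had 57.7% for Stat5a and 47.3% for Stat5b, each with 0 GC boxes. A GC box was found in 4 of the 9 windows and a CCAAT box in 3, on either strand. Over all 32851 windows of that length in the table, 35.7% held a GC box and 37.4% a CCAAT box. The STAT recognition motif TTCNNNGAA was in 0 of the 9 windows and in 8.3% of all windows. The E-box CACGTG was likewise in 0 of the 9 and in 7.15% of all windows. These counts describe letters in short windows and are no measure of binding.

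Depth varied within a medium. In the 15 libraries whose whole reads could be recovered from the table, totals ran from 25800000 to 42300000 reads, to 3 digits, both extremes being libraries of complete fresh medium. The sums of the deposited values were 32700000 to 33200000 in the media without added methionine and 36200000 to 36900000 in those with it, so scaling all libraries to one total moved the median fold change of all genes. With that scaling the median was 0.17 on the log2 scale for methionine removal, 0.15 for supernatant and -0.14 for methionine addition, against 0.01, 0.00 and 0.00 without it. Where it changes the call of a STAT gene, this is given below. The CD8 lineage was clear: Cd8a read 24022 to 37519 and Cd4 134 to 200 depth-normalized reads in every library.

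Stat5b, which encodes one of the paired STAT5 proteins, had the largest change of the 6 genes when methionine-free fresh medium or unsupplemented supernatant was compared with complete fresh medium. In complete fresh medium its libraries read 7967, 7640, 7675 and 7715 depth-normalized reads. Without methionine they read 3792, 3921, 3974 and 3786, and in supernatant 3830, 3797, 3794 and 3953. The media without added methionine thus gave almost the same reading, and neither overlapped complete medium. With methionine added to supernatant the libraries read 6149, 5955, 6246 and 5963, between the others and overlapping neither. Stat5b fell to 49.9% of its complete-medium mean without methionine (log2 fold change -1.0, 95% confidence interval -1.06 to -0.94, limma adjusted p = 2.2e-25). In supernatant it fell to 49.6% (log2 fold change -1.01, limma adjusted p = 1.86e-25). It rose by 58.1% when methionine was added to supernatant (log2 fold change 0.66, interval 0.60 to 0.72, limma adjusted p = 3.79e-20).

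Stat5a, its close relative on the same chromosome, had the smallest change of the 6 in those comparisons, except in supernatant under quantile normalization, where that of Stat3 was smaller. The libraries in complete fresh medium read 3431, 3333, 3392 and 3185. Those without methionine read 2857, 2891, 2874 and 2789, and those in supernatant 2730, 3003, 2946 and 2884. All of these fell short of the lowest complete-medium library. Stat5a fell by 14.5% without methionine (log2 fold change -0.22, limma adjusted p = 2.84e-07) and fell by 13.3% in supernatant (-0.21, limma adjusted p = 1.29e-06). Under scaling to total reads neither call held: the log2 values were -0.065 (adjusted p = 0.0729) and -0.06 (adjusted p = 0.0967). With methionine added to supernatant the libraries read 2949, 2960, 2914 and 2888, inside the spread of the unsupplemented supernatant. The log2 difference was 0.02 (interval -0.05 to 0.09, limma adjusted p = 0.6), and under scaling to total reads it was -0.113 and called lower (adjusted p = 0.00311).

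**Figure D1:**
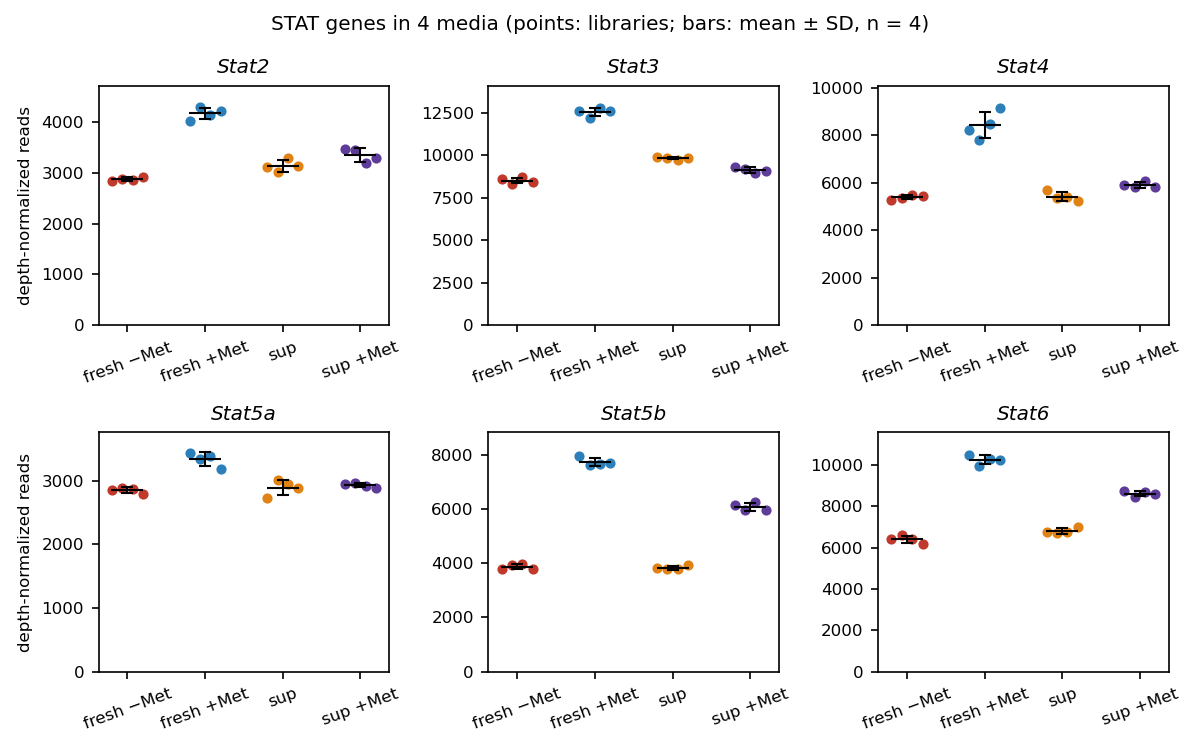
Depth-normalized reads (y axis, from 0) of each STAT gene in fresh medium without methionine (fresh −Met), complete fresh medium (fresh +Met), B16F10 supernatant (sup) and supernatant with methionine added (sup +Met). Points are libraries and black bars the mean ± SD (n = 4): Stat5b in supplemented supernatant (5955 to 6246) lies between the other media, while Stat5a there (2888 to 2960) lies within the range of unsupplemented supernatant.

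Set beside the shift of Stat5b, the steadier Stat5a changed the balance of the pair inside each library. The ratio of Stat5a to Stat5b reads was 0.43 ± 0.0126 in complete fresh medium and 0.738 ± 0.0123 without methionine (SD, n = 4). It was 0.752 ± 0.0372 in supernatant and 0.482 ± 0.0126 after methionine was added. The ratio differed between the methionine-free and complete fresh media by 0.78 on the log2 scale, and between supernatant with and without added methionine by -0.64. Both differences reached the smallest p that 4 libraries against 4 allow (exact two-sided permutation test, p = 0.0286, adjusted p = 0.0357 over 45 ratio tests). Of those 45 tests 36 had an adjusted p below 0.05, so the p-value does not mark out this pair. The ratio in supplemented supernatant also stood above that in complete fresh medium, by 0.16 (exact permutation p = 0.0286, adjusted p = 0.0357), but on FPKM values the exact permutation p was 0.0571. Supernatant and methionine-free fresh medium differed by 0.03 (exact permutation p = 0.486), which the spread of the libraries covers. A ratio within a library does not move with a scaling factor of that library.

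On the length-scaled FPKM values the pair can be compared directly. The ratio of Stat5a to Stat5b FPKM ran from 0.992 to 1.11 without methionine and from 0.967 to 1.35 in supernatant, so the levels of these genes were close. In complete fresh medium it ran from 0.556 to 0.668, and in supplemented supernatant from 0.656 to 0.726, Stat5b being the higher in each library. The transcripts share sequence: 15.8% of the 50-base stretches of the Stat5a-201 transcript occur in Stat5b-202, and 11.8% the other way, so reads from those stretches may have been split between them. Neither shares such a stretch with Stat3. Reads in the 72 bases where Stat5a and Stat3 overlap cannot be given to one gene unless strand was used, which is not given in the sources used here.

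**Figure D2:**
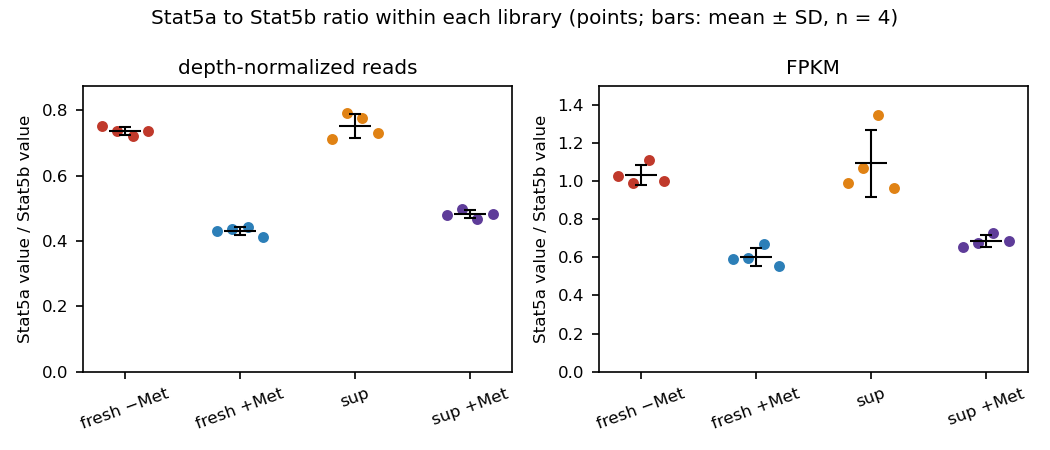
Ratio of the Stat5a value to the Stat5b value within each library (y axis, no unit, from 0), from depth-normalized reads at left and FPKM at right, in the media abbreviated as fresh −Met, fresh +Met, sup and sup +Met. Points are libraries and bars the mean ± SD (n = 4): on reads, the means are 0.738 and 0.752 in the media without added methionine, and 0.43 and 0.482 in those with it.

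Stat6, which carries interleukin-4 signals, also lay highest in complete fresh medium and next highest in supplemented supernatant. Its libraries read 10505, 9967, 10300 and 10231 in complete fresh medium, and 6419, 6617, 6398 and 6193 without methionine. Supernatant libraries read 6759, 6712, 6779 and 6999, and supplemented ones 8721, 8462, 8700 and 8586. Supplementation thus placed Stat6 between complete medium and supernatant, with no overlap on either side. Stat6 fell by 37.5% without methionine (log2 fold change -0.68, limma adjusted p = 3.19e-21) and by 33.5% in supernatant (-0.59, limma adjusted p = 1.63e-19). It rose by 26.5% with added methionine (0.34, limma adjusted p = 5.54e-13). The ratio of Stat5b to Stat6 still moved, by -0.32 on methionine removal and 0.32 on methionine addition (exact permutation p = 0.0286, adjusted p = 0.0357 for each), so the change of Stat5b was the larger. Stat6 overlaps the gene Nab2 by 40 bases.

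Stat3, the transducer of interleukin-6 and interleukin-10 signals, was the member that read lower still when methionine was added. Complete fresh medium gave 12624, 12202, 12794 and 12581 reads, and methionine-free medium 8591, 8310, 8686 and 8424. Supernatant gave 9900, 9847, 9721 and 9808, all above methionine-free medium, and supplemented supernatant gave 9284, 9212, 8925 and 9089. Each of the 4 sets of libraries was separate from the others. Stat3 fell by 32.2% on methionine removal (log2 fold change -0.56, limma adjusted p = 1.35e-19) and fell by 21.8% in supernatant (-0.35, limma adjusted p = 3.83e-14). On methionine addition it fell by 7.04% (-0.11, limma adjusted p = 0.000513). On FPKM values that last difference was -0.028 and not called (adjusted p = 0.845, and 0.64 with the replicate number as a block).

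Stat4, which interleukin-12 activates, read 8232, 7816, 8494 and 9134 in complete fresh medium, the widest spread of any group (SD 552). Methionine-free libraries read 5285, 5360, 5487 and 5425, and supernatant libraries 5674, 5355, 5419 and 5214. These sets overlapped each other and lay below complete medium. Supplemented supernatant read 5905, 5808, 6092 and 5818, just above the unsupplemented libraries. Stat4 fell by 36.0% without methionine (log2 fold change -0.64, limma adjusted p = 1.16e-17) and by 35.7% in supernatant (-0.63, limma adjusted p = 1.55e-17), and rose by 9.05% with added methionine (0.13, limma adjusted p = 0.00173). Under scaling to total reads that rise became -0.006 (adjusted p = 0.863), and under quantile normalization 0.06 (adjusted p = 0.1). Stat4 overlaps the annotated genes Gm28177 and Gm3940 and reads in shared exons could count to either.

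Stat2, the interferon-specific member that acts in a complex with IRF9, read 4029, 4288, 4137 and 4223 in complete fresh medium and 2840, 2879, 2858 and 2926 without methionine. Supernatant gave 3113, 3013, 3298 and 3143, and supplemented supernatant 3473, 3445, 3185 and 3287. The supernatant sets overlapped each other, and both lay between the fresh media. Stat2 fell by 31.0% without methionine (log2 fold change -0.54, limma adjusted p = 6.85e-16) and by 24.6% in supernatant (-0.41, limma adjusted p = 8.05e-13). The rise of 6.55% with added methionine (0.09, limma adjusted p = 0.0153) was lost without supernatant library 1 (0.071, adjusted p = 0.0671), without supplemented library 0 (0.073, 0.0683) or without supplemented library 1 (0.077, 0.0555), and read -0.04 under scaling to total reads (adjusted p = 0.283).

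Across the family, 6 of 6 members fell on methionine removal, where 42.3% of all 12469 genes tested were called lower. Likewise 6 of 6 fell in supernatant against complete fresh medium, with 42.5% of all genes called lower. These comparisons share the complete-medium libraries. Under scaling to total reads 5 of 6 were called lower in each, Stat5a being the exception. That scaling called 4371 of all 12469 genes lower on removal and 4466 in supernatant. The members' median log2 fold change was -0.60 on methionine removal against 0.01 for all genes, and -0.50 in supernatant against 0.00. In this bulk RNA, fewer cells of a type and less RNA per cell cannot be told apart. Since around 4 genes in 10 were called in each direction, a call alone is common in these data.

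Summed reads of marker lists for CD8 T cells and other cell types also differed between the media. Summed reads of 6 CD8 T cell markers were 79363 to 81216 without methionine, 89935 to 93853 in complete fresh medium, 91431 to 92543 in supernatant and 98614 to 105712 with methionine added. These markers did not move together. On methionine removal 2 rose, 3 fell and 1 was not called, where 5397 of all 12469 genes were called higher and 5275 lower. Their log2 values ran from -1.68 for Cd3g to 0.61 for Cd2, both named after their values were seen. For 5 B cell markers the sums were 778 to 966, 503 to 542, 731 to 858 and 363 to 385 in the same order, nearly all of it Cd79b, with Ms4a1 and Pax5 at 0 in the lowest library. For 3 CD4 T cell markers the sums were 361 to 424, 229 to 271, 429 to 474 and 300 to 344. Cd4 itself averaged 163 without methionine and 182 in complete fresh medium (log2 -0.16, not called). Foxp3 averaged 196 against 50.8 and Cd40lg 38.5 against 22.7 in the same media. These 3 genes were named after their values were seen. For 3 NK cell markers they were 1204 to 1393, 1092 to 1161, 1824 to 1978 and 2353 to 2471. That sum was mostly Eomes (988 to 2212 over the libraries), with Ncr1 at 2.7 to 16.6 and Klrb1c at 18.4 to 283. It mainly follows Eomes and is no count of NK cells. The sums of 5 myeloid markers were 142 to 211, 343 to 403, 152 to 176 and 157 to 219, with Csf1r at 0 to 5.77; on removal Cd68, the most abundant, fell by 1.68 and Cd14 rose by 1.61, again named after their values were seen. The 6 melanoma markers summed to 257 to 282, 103 to 134, 231 to 257 and 91 to 144. Mlana, Dct and Tyrp1 were at 0 in the lowest library and at most 7.14. Pmel averaged 176 without methionine against 29.1 in complete fresh medium, and Mitf 49.0 against 24.5. Tyr went the other way, at 37.8 against 62.2. These too were named after their values were seen. The part of the listed cell types in the STAT readings was not tested.

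Methionine addition to supernatant split the family. Stat2, Stat4, Stat5b and Stat6 rose, 4 of 6, where 41.8% of all genes were called higher; Stat3 fell, 1 of 6, where 41.8% were called lower; Stat5a was not called. Under scaling to total reads only Stat5b and Stat6 were called higher, Stat3 and Stat5a were called lower, and Stat2 and Stat4 were not called. That scaling called 4355 of all 12469 genes higher and 6164 lower. Expressed as the share of the supernatant decrease (log2) that addition reversed, the values in the main fit were 65.4% for Stat5b and 57.5% for Stat6. The share depends on the setting. Over all alternatives the change on addition ran from 0.529 to 0.699 for Stat5b and 0.207 to 0.397 for Stat6. The change in supernatant ran from -1.073 to -0.865 and from -0.66 to -0.443. No such share is given for the other 4 members, whose changes on addition were small or turned with the scaling. Numerator and denominator of this share use the same supernatant libraries, so it is given as a description.

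Supplemented supernatant did not bring the readings up to complete medium. In supplemented supernatant against complete fresh medium, 6 of 6 were called lower, where 32.5% of all genes were. The log2 differences were -0.51 for Stat4, -0.46 for Stat3, -0.35 for Stat5b, -0.32 for Stat2, -0.25 for Stat6 and -0.19 for Stat5a. On FPKM values without a block 4 of 6 were called lower, where 990 of 10944 genes were. Stat6 (-0.262, limma adjusted p = 0.152) and Stat5a (-0.188, limma adjusted p = 0.502) were not called. With the replicate number as a block all 6 were. The mean of Stat5b was 78.4% of that in complete medium, and the mean of Stat4 70.1%.

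**Figure D3:**
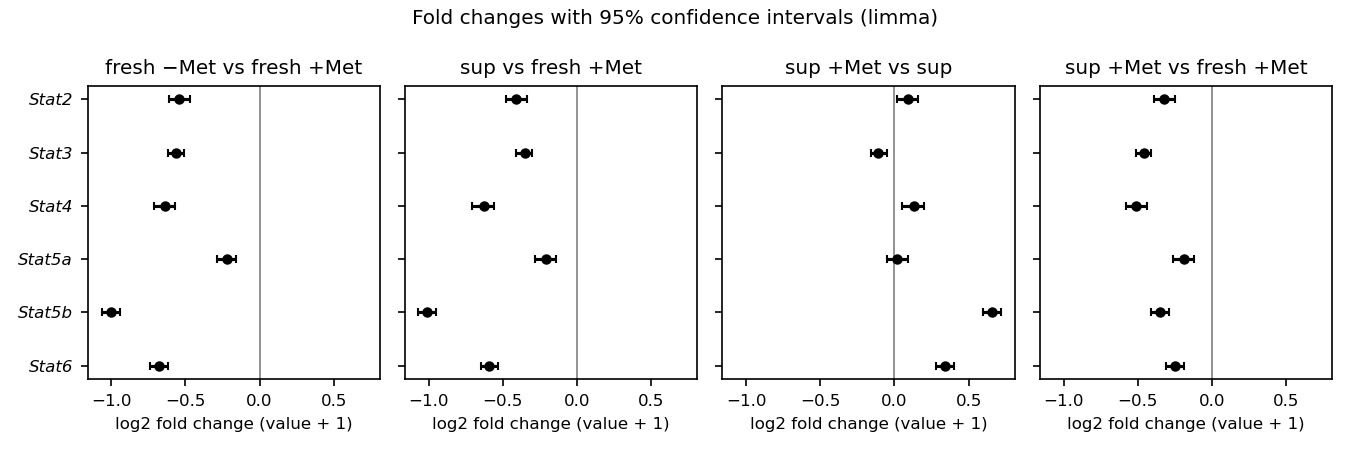
Log2 fold change (x axis, on depth-normalized value + 1) of each STAT gene in 4 comparisons of media, with 95% confidence intervals from limma (16 libraries). Every point lies below 0 in the comparisons with complete fresh medium; in the methionine addition (sup +Met vs sup) Stat5b is at 0.66 and Stat6 at 0.34, while Stat3 is at -0.11 and Stat2, Stat4 and Stat5a, at 0.09, 0.13 and 0.02, turn to -0.04, -0.006 and -0.113 under scaling to total reads.

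Supernatant and methionine-free fresh medium were close for Stat4, Stat5a and Stat5b, and less so for Stat2, Stat3 and Stat6. Against methionine-free fresh medium 3 of 6 members were called higher in supernatant, where 14.0% of all genes were. They were Stat3, higher by 15.5% (log2 0.21, limma adjusted p = 2.1e-07), Stat2, higher by 9.24% (0.13, limma adjusted p = 0.00541), and Stat6, higher by 6.32% (0.09, limma adjusted p = 0.0164). The Stat6 call was lost without methionine-free library 3 (0.072, adjusted p = 0.0726) or supernatant library 3 (0.076, adjusted p = 0.0697). For Stat5b the difference was -0.01 (interval -0.07 to 0.05), for Stat5a 0.02 (-0.05 to 0.09) and for Stat4 0.01 (-0.07 to 0.08). On FPKM values Stat2, Stat3 and Stat6 were not called here, where 21 of 10944 genes were called higher. With the replicate number as a block Stat3 was called, where 1432 genes were called in either direction.

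The difference between medium without and with added methionine was compared between fresh medium and supernatant, as an interaction. For all 6 members it was more negative in fresh medium than in supernatant, where 25.0% of all genes were called in that direction. The labels do not give the methionine content of the supernatant. The difference between the media was -0.67 for Stat3 (limma adjusted p = 3.44e-16), -0.52 for Stat4 (2.16e-10) and -0.44 for Stat2 (2.8e-09). It was -0.34 for Stat5b (limma adjusted p = 2.46e-08), -0.34 for Stat6 (1.03e-08) and -0.21 for Stat5a (0.000506). On FPKM values with no block, 1 of the 6 was called, where 400 of 10944 genes were called in that direction. With the replicate number as a block all 6 were called, where 3848 genes were called in either direction. Stat3 differed most: methionine-free medium read below complete medium, while unsupplemented supernatant read above the supplemented.

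Length-scaled values order the genes by level. In complete fresh medium the mean FPKM was 81.5 ± 11.0 for Stat4, 77.2 ± 4.55 for Stat3, 73.5 ± 5.18 for Stat6, 46.4 ± 2.74 for Stat5b, 28.0 ± 3.29 for Stat5a and 26.4 ± 1.64 for Stat2 (SD, n = 4). Stat4, Stat3 and Stat6 overlapped, as did Stat5a and Stat2, whereas Stat5b stood apart from its neighbours on both sides. Without methionine Stat4 (51.9 ± 5.08), Stat3 (49.7 ± 6.17) and Stat6 (43.6 ± 6.29) again overlapped. Below them Stat5b (21.4 ± 2.9) had come down among Stat5a (22.2 ± 3.75) and Stat2 (17.8 ± 1.66), each overlapping the next in the order.

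The same order held in supernatant except at the top, where Stat3 averaged 56.7 ± 6.69, Stat4 51.4 ± 7.48 and Stat6 46.3 ± 5.3 FPKM. Stat5a was at 23.8 ± 5.48, Stat5b at 21.6 ± 2.48 and Stat2 at 19.3 ± 2.06 FPKM, all overlapping. In supplemented supernatant Stat6 led at 61.2 ± 5.66 FPKM, with Stat4 at 55.9 ± 5.93 and Stat3 at 55.4 ± 2.45 within its range. Stat5b, at 35.7 ± 3.52 FPKM, again stood clear of Stat5a (24.5 ± 2.84) below it and Stat3 above it. The FPKM values spread more widely than the depth-normalized reads. Library 3 was the lowest and library 2 the highest for Stat5a in each of the 4 media, and library 3 was the highest for Stat4 in each.

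**Figure D4:**
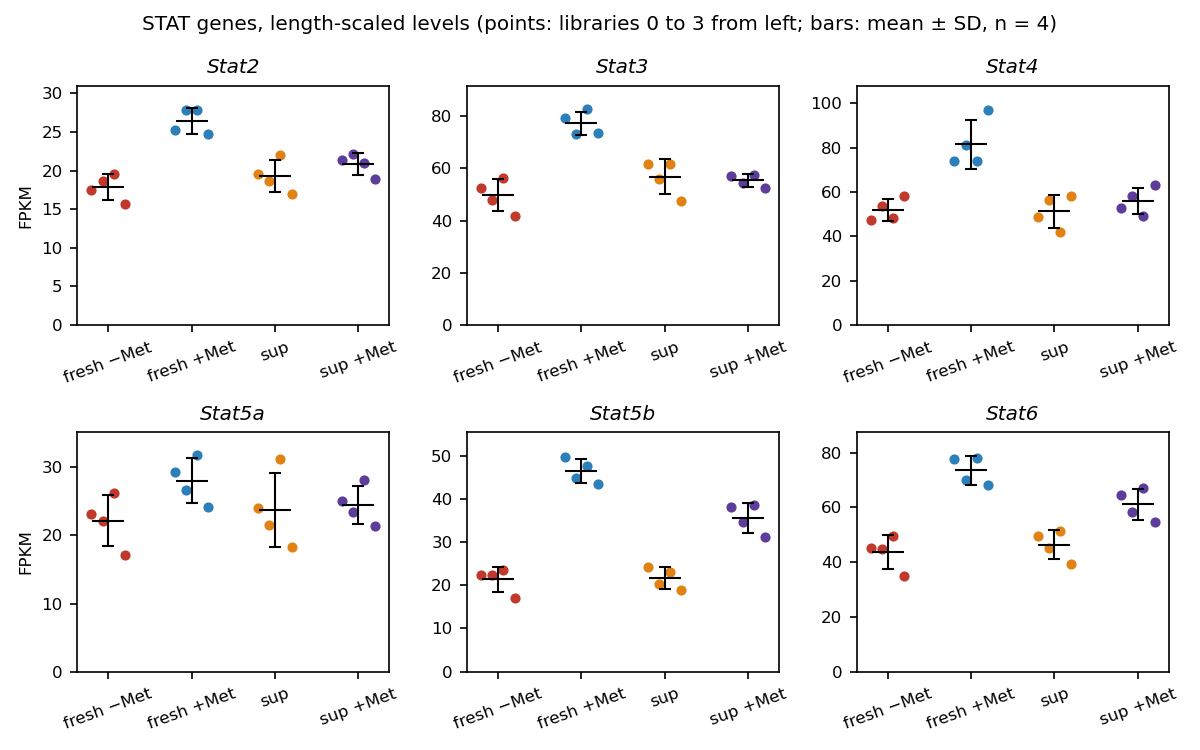
FPKM (y axis, from 0) of each STAT gene in the media abbreviated as fresh −Met, fresh +Met, sup and sup +Met. Points are libraries 0 to 3 from left to right and bars the mean ± SD (n = 4): Stat5b averages 46.4 in complete fresh medium and 21.4 without methionine, and library 3 is the lowest for Stat5a in each medium.

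Patterns over the 16 libraries were compared as the root mean square difference between log2 profiles, each centred on its own mean. Among the members, Stat2 and Stat3 were the most alike at 0.08, and Stat5a and Stat5b the least alike at 0.36. Stat5b was closest to Stat6, at 0.17. Of 9487 other genes searched, the one nearest to Stat5b was Rasa3, an inhibitor of Ras and Rap signalling, at 0.035, with group means of 2940 reads without methionine, 5858 in complete medium, 2825 in supernatant and 4556 in supplemented supernatant. Nipsnap1 (0.044) and Bcap31 (0.047) came next. For Stat6 the nearest was Ptprc, which encodes the CD45 phosphatase, at 0.048, and then Clasp1 and Atg2b. For Stat5a it was Psap, a lysosomal protein precursor, at 0.04, and then Frmd8 and Sec24c. Stat2 was nearest to Wdr26 (0.053), Madd and Ptpn22, Stat3 to Parp9 (0.054), Cdc42 and Tspan31, and Stat4 to Sp100 (0.049), Mndal and Oaz2.

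The other genes of the chromosome 11 stretch moved on their own scales. Ghdc, next to Stat5b, read 523 ± 31.5 in complete fresh medium, 445 ± 8.6 without methionine and 449 ± 33.5 in supernatant (SD, n = 4). Its log2 fold changes were -0.23 (limma adjusted p = 0.00169) and -0.22 (0.00239), closer to those of Stat5a than of Stat5b. On methionine addition it was -0.06 (limma adjusted p = 0.37). Cavin1, beyond Stat3, had 5.89 to 24.9 reads in the group means and fell by 1.99 on the log2 scale on methionine removal (limma adjusted p = 0.000224). Stat5b and Stat5a, on either side of the same intergenic stretch, thus differed by 0.78 on the log2 scale in their response to methionine removal.

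Upstream of the STATs, 19 of 20 cytokine receptor chains were tested. On methionine removal 7 rose, 8 fell and 4 were not called, and on methionine addition 7 rose and 11 fell. Of all 12469 genes 5397 were called higher and 5275 lower on removal, and 41.8% in each direction on addition. Il21r, the interleukin-21 receptor, rose by 1.53 on the log2 scale on removal and fell by 1.10 on addition, and Ifngr2, an interferon-gamma receptor chain, rose by 1.05 and fell by 1.15. Il7r, the interleukin-7 receptor, fell by 0.92 on removal, as did Il6st, the shared interleukin-6 receptor chain, by 0.83. Il2ra, the high-affinity interleukin-2 receptor chain, rose most on addition, by 1.21. With total-read scaling the removal counts were 10 up and 5 down, where 6367 of all genes were called higher and 4371 lower. With quantile normalization they were 10 up and 7 down, where 5404 were called higher and 5295 lower.

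Of the 4 JAK kinases, 3 fell and 1 rose on methionine removal, where 42.3% of all genes were called lower. Jak3, the kinase of the common gamma chain, fell by 1.41 and Jak1, its partner, by 0.64, while Jak2 rose by 0.51 (limma adjusted p = 8.24e-26, 2.5e-20 and 2.07e-15). In supernatant the values were -1.30 for Jak3, -0.52 for Jak1 and 0.40 for Jak2. On methionine addition Jak3 rose by 0.86 and Jak2 fell by 0.75, and Jak1 rose by 0.22 but was -0.01 with quantile normalization.

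Inhibitors of the pathway numbered 17, of which 9 rose, 4 fell and 4 were not called on methionine removal, and 5 rose and 8 fell on addition. Of all 12469 genes tested, 5397 were called higher and 5275 lower on removal, and 5218 higher and 5215 lower on addition. With total-read scaling 12 inhibitors rose and 2 fell on removal, and 4 rose and 12 fell on addition. That scaling called 6367 of all genes higher and 4371 lower on removal, and 4355 higher and 6164 lower on addition. Cish, a STAT5-induced feedback inhibitor, rose by 2.60 and Socs1, which blocks JAK kinases, by 2.22 on removal. The values in supernatant were 2.72 and 2.12. Ptpn6, the phosphatase SHP-1, fell by 1.63 on removal and rose by 1.29 on addition. The 5 cofactors tested all rose on removal and all fell on addition, with Crebbp, a histone acetyltransferase, at 1.25 and -1.10 and Irf9, the partner of STAT2, at 0.80 and -0.81.

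Genes known as STAT5 targets did not move in one direction. Of 15, 9 rose, 5 fell and 1 was not called on methionine removal, while Stat5b and Stat5a both fell. In that comparison 5397 of all 12469 genes were called higher and 5275 lower. Total-read scaling gave 10 up and 5 down, where 6367 of all genes were called higher and 4371 lower. Quantile normalization gave 11 up and 4 down, where 5404 were called higher and 5295 lower. Gzmb, encoding granzyme B and named after its values were seen, read -0.38, but 0.24 with quantile normalization. Lta, encoding lymphotoxin alpha, rose by 3.71 and Cish by 2.60, whereas Ccnd3, encoding cyclin D3, fell by 0.99 and Il2ra by 0.67. On methionine addition 5 rose and 9 fell, where 41.8% of all genes were called in each direction. With total-read scaling 10 fell, where 6164 of all 12469 genes were called lower. Il2ra rose by 1.21 and Ccnd3 by 1.01, while Mcl1, a survival factor, fell by 1.37. Cish fell by 1.21. The median of the list was 1.14 on removal against 0.01 for all genes, and -0.30 on addition against 0.00.

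Target lists of the other members were likewise mixed. On methionine removal 5397 of all 12469 genes were called higher and 5275 lower, so a mixed list is common in these data. Of 7 STAT4 targets 4 rose and 3 fell on methionine removal, with Ifng, the interferon-gamma gene, at 3.66 and Il18r1, an interleukin-18 receptor chain, at -0.95. On addition these genes read -3.53 and 0.74. Of 6 STAT3 targets 4 rose and 2 fell on removal, led by Il10 at 1.32 and Junb at 1.0, and Prdm1, encoding BLIMP-1, fell by 0.73. Total-read scaling left 1 of those 2 decreases, where 4371 of all genes were called lower. Of 3 STAT6 targets Il4ra, the interleukin-4 receptor, rose by 0.76, and Gata3 and Il4 fell by 0.27 and 1.01, Il4 at a mean of 4.95 reads without methionine.

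Interferon-stimulated genes, whose usual activator contains STAT2, mostly went the other way from Stat2 on methionine removal. There 11 of 14 rose and 3 fell, where 5397 of all 12469 genes were called higher. On addition 11 fell, 1 rose and 2 were not called, where 41.8% of all genes were called lower. Stat2 itself had no firm direction on addition (0.09, but -0.04 and not called under total-read scaling). Ifit1, an antiviral RNA-binding protein, averaged 309 ± 15.7 reads without methionine and rose by 2.58 on the log2 scale, and Rtp4 rose by 2.27. Rsad2, encoding viperin, and Irf7 fell by 1.31 and 0.76. On addition Ifit1 fell by 2.80 and Ifit3 by 2.33. The gene that rose on addition was Bst2, encoding tetherin, by 0.15, and with total-read scaling it was at 0.01 and not called.

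**Figure D5:**
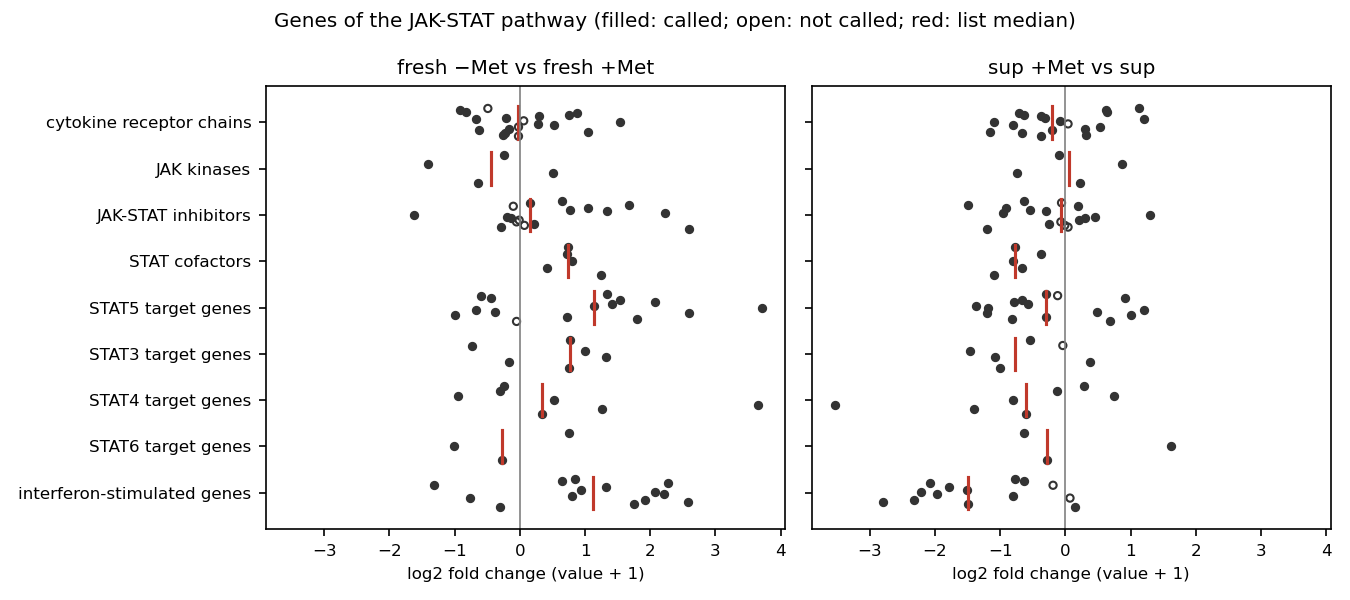
Log2 fold change (x axis, on depth-normalized value + 1) of the genes of 9 lists of the JAK-STAT pathway on methionine removal (fresh −Met vs fresh +Met, left) and methionine addition (sup +Met vs sup, right). Filled points passed the limma test, open points did not and red lines are list medians; the 5 cofactors lie above 0 on removal and below 0 on addition, and the STAT5 targets fall on both sides of 0 in each. Under scaling to total reads the interferon-stimulated genes called on addition still have 11 called lower, and the 1 called higher is no longer called. That scaling called 6164 of all 12469 genes lower on addition.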

How the data were processed

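The data are RNA-seq libraries of CD8+ T cells, 4 in each of 4 media. The authors deposited depth-normalized read counts per gene, a signal that is reads divided by a factor per library, and a second table of FPKM values. Per the submitters' processing notes, the build was mm10 (GRCm38) and the tools included Cuffdiff 2.2.1 with Cufflinks, TopHat2 2.0.13 on Bowtie2 2.2.1, and FastQC 0.11.3. Which tool made which table, the annotation and the strand setting are not given in the sources used here.

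Log2(depth-normalized value + 1) was fitted for 12469 genes (mean 10 or more) with limma 3.58.1 in R 4.3.3 (4 group means, all 16 libraries, trended variance). P-values were two-sided and Benjamini-Hochberg adjusted over all genes, and a gene was called below 0.05. Fold changes are on that log2(value + 1) scale, which understates those of low genes. Ratios between members were tested by exact permutation in SciPy 1.17.1, adjusted over 45 tests. In 15 libraries 100% of values were whole multiples of a single read (within 0.01 reads); edgeR 4.0.16 and DESeq2 1.42.0 were run on these recovered counts as alternatives. For FPKM, log2(FPKM + 1) was used for 10944 genes (mean 1 or more). Other alternatives were the pseudocount, no filter, total-read scaling, quantile normalization, only the groups compared, a replicate block and leaving out each library. The limma step was tested on simulated data.

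Same-numbered libraries deviated together in the FPKM table (correlations 0.135 to 0.635 over 24 pairs) but not in the depth-normalized table (-0.0668 to 0.068). Members of a group differed by more than sampling noise. Named genes are the members, the 3 genes nearest to each in pattern, the neighbours on chromosome 11, and per list at most 2 called genes each way. The members and lists were chosen with earlier results of these data known. One item is not reported here.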

Additional observations from a re-analysis of the deposited data

Results flagged for a closer look

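For each of the 6 STAT genes the difference between medium without and with added methionine was not the same in fresh medium and in supernatant, by the test of the difference itself (limma, Benjamini-Hochberg over all genes). The difference in fresh medium minus that in supernatant was -0.67 on the log2 scale for Stat3, whose own differences were -0.56 in fresh medium and, read in the same direction, 0.11 in supernatant. It was -0.52 for Stat4, -0.44 for Stat2, -0.34 for Stat5b, -0.34 for Stat6 and -0.21 for Stat5a. Of all genes tested 25.0% were called in that direction, and in the FPKM table without the replicate block only Stat3 was called. None of the 24 sets of 4 libraries (6 genes in 4 media) held a library that stood far from the rest; the count was 0.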

How the results depend on the processing

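Each member was recomputed in each comparison under the alternatives: of 966 values 936 kept their direction and their side of the threshold. The precision is limited by 4 libraries a medium. Pseudocounts of 0.5 and 5, no filter, only the groups compared, edgeR and DESeq2 changed no call of a member. Under total-read scaling Stat5a was -0.065 on methionine removal and -0.06 in supernatant, no longer called, and on methionine addition Stat2 was -0.04, Stat4 -0.006 and Stat5a -0.113, all of the other sign. Quantile normalization gave 0.06 for Stat4 on addition, not called, and -0.022 for the Stat5a to Stat3 ratio in supernatant, of the other sign. In the FPKM table Stat5a was -0.332 on removal and -0.247 in supernatant, and on addition Stat2 was 0.11, Stat3 -0.028 and Stat4 0.125, none called. The FPKM table called 6365 genes on removal, 6280 in supernatant, 5649 on addition, 1873 in supplemented supernatant against complete fresh medium, 37 in supernatant against methionine-free medium and 739 in the interaction. The depth-normalized table called 10672, 10664, 10433, 8106, 3344 and 6557. With the replicate block the FPKM table called 1432 in supernatant against methionine-free medium and 3848 in the interaction, and Stat2 (0.11) and Stat3 (-0.028) on addition were still not called. In the depth-normalized table, where 5 of 16 libraries were most like their own number, the replicate block changed no call of a member. Leaving out 1 library moved Stat2 on addition between 0.071 and 0.115, and 3 of those 16 fits lost the call. The cause of these changes was not tested.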
